A study of Mus musculus with 6 samples.

Results

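Microfibrils are extracellular threads built on fibrillins, and in many tissues they act as the scaffold on which tropoelastin is laid down and crosslinked into elastic fibres. Small microfibril glycoproteins, fibulins and latent TGF-beta binding proteins attach to this scaffold and join it to elastin, to cells or to stored growth factor. In brain such genes are known mainly from vessel walls and meninges. A list of 10 genes of this group, namely Mfap4, Mfap2, Mfap5, Eln, Fbn1, Fbn2, Fbln1, Fbln2, Fbln5 and Ltbp1, was examined in 6 mouse medulloblastomas, and 9 of the 10 were measured among 22180 genes in all. The members were chosen by function and with the contrast between the groups already known, so their differences between groups are given as a description and not as tests. No feature carried the symbol Fbn1 in the annotation used, and that gene was not analysed here.

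Gene expression was measured on Affymetrix whole-transcript arrays, 1 array per tumour, and values are RMA levels on the log2 scale. The knockout group was 3 tumours of genotype Math1Cre::CrebbpFl/FlSmoM2Fl/+, and the wild type group was 3 tumours of genotype Math1Cre::SmoM2Fl/+. All animals carried SmoM2, a constitutively active Smoothened that drives Sonic hedgehog signalling, and the tamoxifen-dependent Cre of the Math1 (Atoh1) promoter, which acts in granule neuron progenitors, while a tumour also holds vessels, meninges and immune cells. All received 1 mg tamoxifen at postnatal day 5, and animals with clear tumour growth were collected at postnatal day 60. Separate litters are not stated, so p-values measure the spread among these tumours, which may in part be technical. The question is how tumour expression changes when Crebbp, a histone acetyltransferase gene, is lost.

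Pairs of arrays correlated at 0.984 to 0.993 across genes. Crebbp itself had levels of 11.24, 11.34 and 11.20 in knockout tumours and 11.80, 11.76 and 11.70 in wild type tumours, so the groups did not overlap. The labels do not define the deleted exons, and whether the feature covers them is unknown. Xist, the RNA of the inactive X chromosome, lay at 12.26 to 12.45 in knockout tumours and at 5.13 to 5.74 in wild type tumours. The knockout arrays thus carried the female pattern and the wild type arrays the male one, sex is not in the labels, and in every value that follows genotype cannot be told apart from sex. Of 10 granule neuron progenitor markers all 10 were measured, each with a mean level above 5.74, the highest of 12 values of sex-linked genes absent from a group. Their summed linear level was 22780 to 25610 in knockout tumours and 26060 to 30910 in wild type tumours. The list was mixed, with 7 negative and 3 positive log2 differences, knockout minus wild type, beside 50.9% positive over all genes. They ran from -1.13 (Neurod1) to 0.31 (Pax6), and Gli1 and Boc were the other positive ones. Every knockout value lay below every wild type value in 6 and above in 1, beside 9.43% and 10.2% of all genes. In limma 7 (70%) had an unadjusted p under 0.05, beside 13.8% of all genes. At an adjusted p of 0.05 the number was 0, beside 0.207% of all genes. In bulk tissue, fewer cells of a type and less RNA per cell cannot be told apart.

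Mfap4 encodes a secreted glycoprotein with a fibrinogen-like domain that binds elastin, fibrillin and integrins. Its log2 level was 10.36, 10.96 and 10.73 in knockout tumours and 9.61, 7.82 and 7.58 in wild type tumours. The groups did not overlap, and wild type replicate 1 lay nearer to the knockout tumours than to the other wild type tumours. The means were 10.69 ± 0.30 in knockout tumours and 8.34 ± 1.11 in wild type tumours (SD, n = 3 each), a log2 difference of 2.35 (SE 0.48), or 5.09-fold. Only 5 of the other 22179 genes had a positive difference at least as large. The plot of members by tumour shows these values.

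The spread of Mfap4 among wild type tumours was wide. Its wild type SD ranked at percentile 99.9 of all genes, against percentile 91.8 for its knockout SD. Wild type replicate 1 exceeded both other wild type arrays by 1.78, and 4 of 22179 other genes had a gap at least as large in that array. The summed level of 8 choroid plexus and ependyma markers was 1777 to 2103 in knockout tumours and 13980, 3232 and 1746 in wild type replicates 1, 2 and 3. Most of the sum in wild type replicate 1 came from Ttr, the transthyretin gene of choroid plexus, with a linear value of 11710, and without Ttr the sums were 1418 to 1684 in knockout tumours and 2262, 1443 and 1473 in wild type replicates 1, 2 and 3. Kl, Clic6 and Folr1 were also high in wild type replicate 1, at log2 levels of 9.22, 8.82 and 7.96, while Otx2, Foxj1, Ccdc153 and Tmem212 did not stand out there. Tmem212 was the sole marker of the 8 with a mean level no higher than those of absent genes. The part of these cells in the Mfap4 values was not tested. Without wild type replicate 1 the Mfap4 difference was 2.98.

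**Figure D1:**
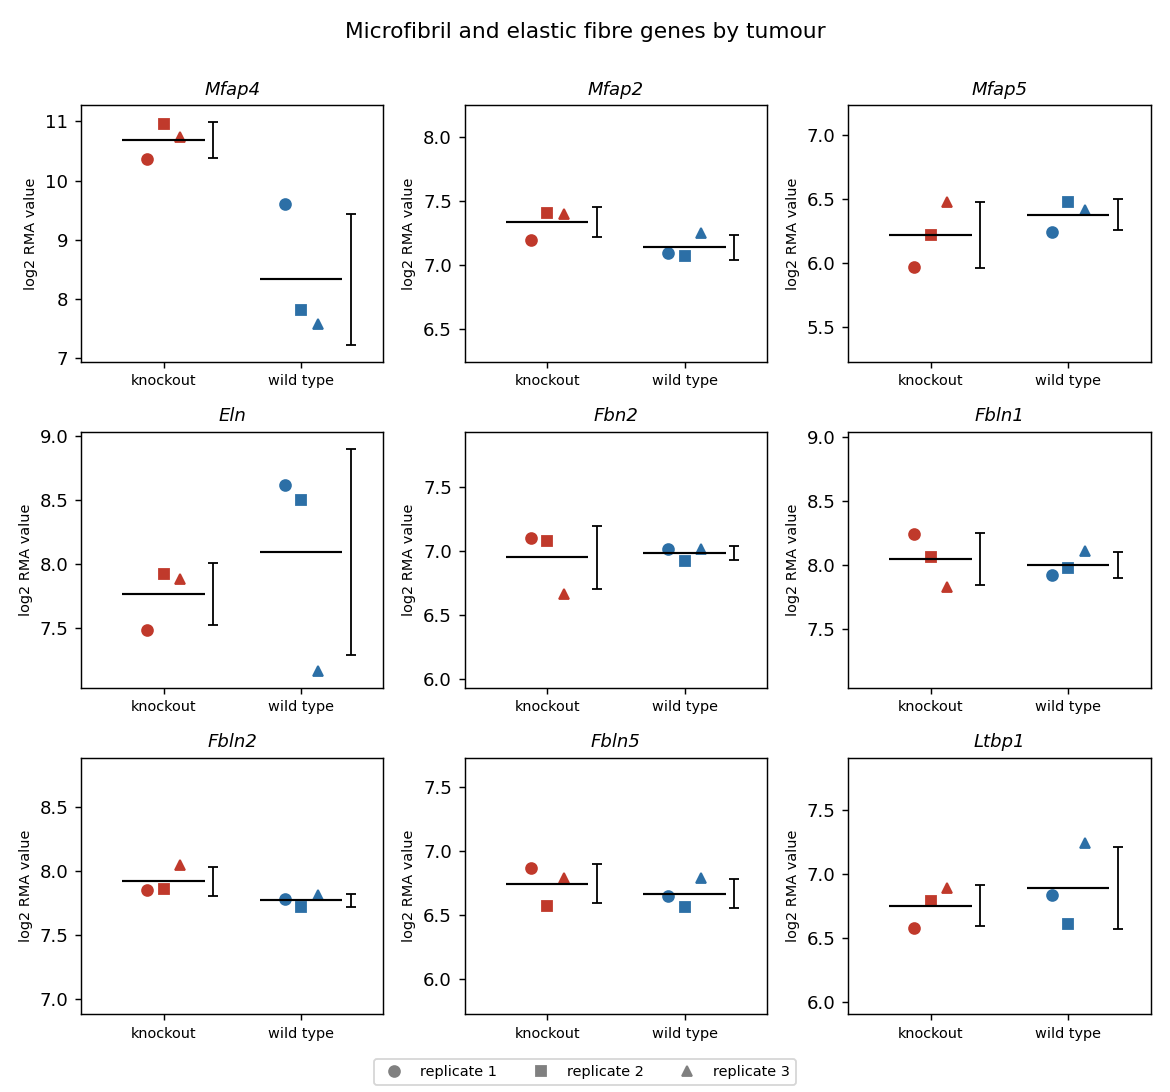
Log2 RMA values of the 9 measured members in each of 3 knockout (left) and 3 wild type (right) tumours, with the group mean as a line and the SD as a bar beside it; each panel has its own axis, and levels of different genes are not comparable. The Mfap4 groups do not overlap and their means are far apart. Wild type replicate 1, at 9.61, lies nearer to the knockout tumours than to the other wild type tumours. The Eln value of wild type replicate 3, 7.17, stands below all others.

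Mfap2 and Mfap5 encode the small microfibril glycoproteins that bind fibrillins. Mfap2 had log2 levels of 7.20, 7.40 and 7.40 in knockout tumours and 7.09, 7.07 and 7.25 in wild type tumours. Only wild type replicate 3 reached into the knockout range, and the log2 difference was 0.20 (SE 0.10). Mfap5 lay at 5.97, 6.22 and 6.48 in knockout tumours and at 6.24, 6.47 and 6.42 in wild type tumours. These overlapped, with a log2 difference of -0.15 (SE 0.14), and the mean over all arrays, 6.30, was the dimmest of the members, close to the levels of absent genes.

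Eln encodes tropoelastin, the soluble precursor of the elastic core. Its log2 level was 7.49, 7.92 and 7.88 in knockout tumours and 8.62, 8.50 and 7.17 in wild type tumours. The wild type group held both the highest values and the lowest one, so the groups overlapped, and the log2 difference was -0.33 (SE 0.36). The means were 7.76 ± 0.24 in knockout tumours and 8.09 ± 0.81 in wild type tumours (SD, n = 3 each), and the wild type SD ranked at percentile 99.6 of all genes. Wild type replicate 3 lay 1.34 below both other wild type arrays, and 23 of 22179 other genes had a gap at least as large in that direction.

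The size of the Eln difference depended on single wild type tumours. Leaving out wild type replicates 1, 2 and 3 in turn gave -0.07, -0.13 and -0.80, and leaving out knockout replicate 1 gave -0.19. The summed level of 10 astrocyte and Bergmann glia markers was 14340 in wild type replicate 3, against 7747 and 7419 in wild type replicates 1 and 2, and 13040 to 15310 in knockout tumours, and all 10 lay above the levels of absent genes. A linear sum is carried mostly by its brightest markers. Sox9 and Gdf10, of the same list, were highest in wild type replicate 2, at log2 levels of 10.36 and 9.09. Of the 10 markers 7 had positive and 3 negative log2 differences, and groups did not overlap in 0, beside 19.6% of all genes. The part of these cells in the Eln values was not tested. Markers of pericytes and smooth muscle, cells that make elastin in vessel walls, had summed levels of 3138 to 4159 in knockout tumours and 3034 to 3320 in wild type tumours, with all 12 of 12 above the levels of absent genes.

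Fbn2 encodes the fibrillin that is made mostly in developing tissue. It lay at 7.10, 7.08 and 6.66 in knockout tumours and at 7.02, 6.92 and 7.02 in wild type tumours. Knockout replicate 3 was the lowest and knockout replicate 1 the highest of all 6, and the log2 difference was -0.03 (SE 0.13). Without knockout replicate 3 it was 0.11, with the sign turned.

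Fbln1 and Fbln2 encode fibulins of basement membranes and elastic fibres, and Fbln5 encodes a fibulin that binds elastin and integrins and is needed for elastic fibre assembly in mice. Fbln1 had log2 levels of 8.24, 8.07 and 7.83 in knockout tumours and 7.92, 7.98 and 8.12 in wild type tumours. The ranges overlapped, and the log2 difference was 0.04 (SE 0.12). Fbln2 lay at 7.85, 7.86 and 8.05 in knockout tumours and at 7.79, 7.72 and 7.82 in wild type tumours, with a log2 difference of 0.15 (SE 0.09). Fbln2 was the other member besides Mfap4 whose groups did not overlap, although the lowest knockout value and the highest wild type value lay close together. Fbln5 had levels of 6.87, 6.58 and 6.79 in knockout tumours and 6.65, 6.57 and 6.79 in wild type tumours, which overlapped (log2 difference 0.08, SE 0.11).

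Ltbp1 encodes a protein that fastens latent TGF-beta to microfibrils. Its levels were 6.58, 6.79 and 6.89 in knockout tumours and 6.83, 6.60 and 7.24 in wild type tumours. Wild type replicate 3 was the highest, and the log2 difference was -0.14 (SE 0.17), which became 0.03 without that array.

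Across the 9 measured members, 5 had positive and 4 negative log2 differences, with a median of 0.04, beside a median of 0.00 over all genes, of which 50.9% were positive. Apart from Mfap4, all 8 lay within 0.35 of 0, as did 89.9% of all genes. In 2 of 9 members, Mfap4 and Fbln2, every knockout value lay above every wild type value, as in 10.2% of all genes, and in 0 members below, as in 9.43% of all genes. In the limma fit over all genes 0 of 9 members passed an adjusted p of 0.05, beside 0.207% of all genes, and 1 had an unadjusted p under 0.05, beside 13.8% of all genes. Mfap4 had the smallest adjusted p of the members, 0.129 in limma, and 0.00646 without wild type replicate 1, the sole array whose removal took it past the threshold, with a range of 0.00646 to 0.325 over all alternatives. As the contrast was known when the members were chosen, nothing is read from these counts.

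**Figure D2:**
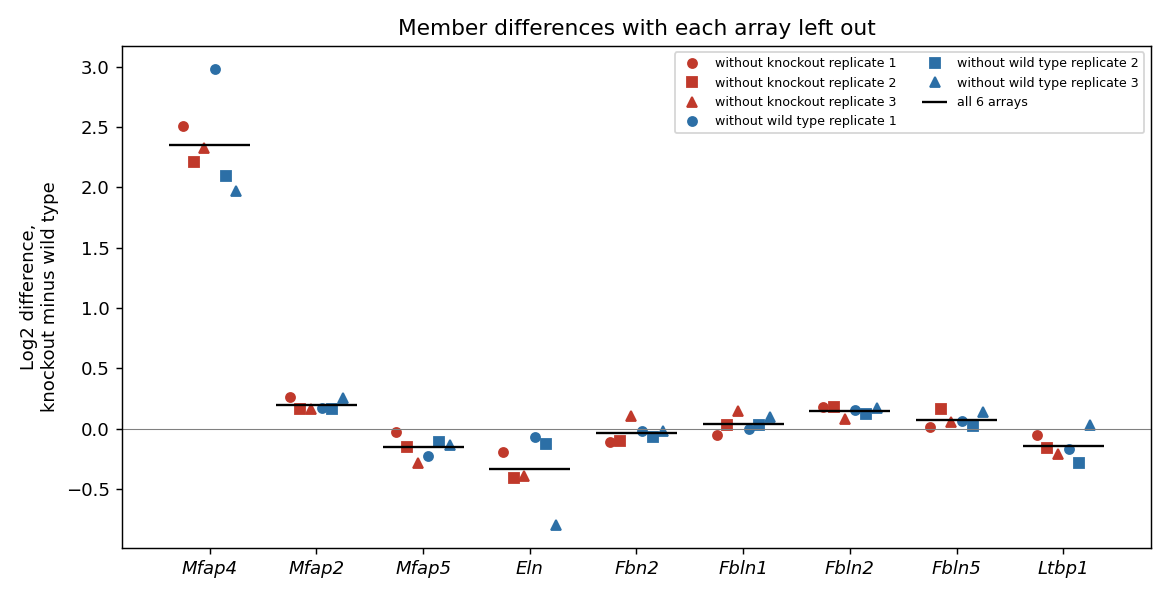
Log2 difference of each member, knockout minus wild type, with all 6 arrays (black line) and with each array left out (red, a knockout array left out; blue, a wild type array left out; marker shape gives the replicate number). Mfap4 stays between 1.97 and 2.98, Eln ranges from -0.80 to -0.07, and the values of Fbn2, Fbln1 and Ltbp1 lie on both sides of 0.

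Promoter windows of 250 bases before to 50 after a gene start were matched in RefSeq (GRCm38.p6) for 6 of the 10 members, Mfap2, Fbn1, Fbln1, Fbln2, Fbln5 and Ltbp1, with 10 windows in all. Motif letters were searched on both strands. The half-site of the cAMP response element, TGACG, is the binding sequence of CREB, the factor after which CREBBP is named, and TGGGTGG lies within the consensus site of the GLI factors of Sonic hedgehog signalling. TATAAA is the TATA box, and CAGACA holds the SMAD binding core. Among member windows 3 of 10 held TGACG, 4 held TGGGTGG, 0 held TATAAA and 5 held CAGACA, against 20.8%, 9.3%, 13.6% and 21% of all 32851 windows. The windows of Mfap2 overlap, as do those of Fbln1, which share their matches. By gene the counts were 2, 3, 0 and 4 of 6. These have no share by gene to stand beside, and a gene with several windows has more chances to match. Mfap4, Mfap5, Eln and Fbn2 were not matched.

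Windows of 3 genes are shown 5′ to 3′ with motif matches in capitals, those of Fbln1 and Ltbp1 for their GLI and CREB motif matches and that of Fbln2 because its groups did not overlap. The Fbln1 window (chr15:85205699-85205998, plus strand) holds TGGGTGG with first bases at -59 and -6 from its gene start and CAGACA, on the minus strand, at -175. From the gene start of the other Fbln1 window the same matches lie at -118, -65 and -234. In the Ltbp1 window (chr17:75005279-75005578, plus strand) TGACG matches on both strands, with first bases at -73 and -70, and the matches overlap in a full palindromic element. The Fbln2 window (chr6:91212514-91212813, plus strand) holds none of these letters. A match is a description of the sequence, and no binding was measured.
Fbln1: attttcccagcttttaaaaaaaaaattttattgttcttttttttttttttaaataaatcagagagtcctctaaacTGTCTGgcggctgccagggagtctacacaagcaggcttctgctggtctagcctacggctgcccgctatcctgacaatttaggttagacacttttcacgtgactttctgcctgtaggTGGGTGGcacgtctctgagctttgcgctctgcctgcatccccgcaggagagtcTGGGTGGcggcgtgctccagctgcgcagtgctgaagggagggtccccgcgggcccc
Ltbp1: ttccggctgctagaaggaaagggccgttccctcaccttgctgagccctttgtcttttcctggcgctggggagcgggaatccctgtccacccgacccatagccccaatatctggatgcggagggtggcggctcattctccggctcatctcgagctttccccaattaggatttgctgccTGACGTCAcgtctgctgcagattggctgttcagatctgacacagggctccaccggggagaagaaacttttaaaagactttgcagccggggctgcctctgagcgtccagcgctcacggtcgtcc
Fbln2: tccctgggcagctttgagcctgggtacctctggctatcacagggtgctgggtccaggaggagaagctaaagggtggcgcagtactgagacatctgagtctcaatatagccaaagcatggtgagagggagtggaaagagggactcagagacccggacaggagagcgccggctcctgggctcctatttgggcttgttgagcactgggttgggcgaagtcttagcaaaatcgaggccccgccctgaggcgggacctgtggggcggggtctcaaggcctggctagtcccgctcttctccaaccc

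The profile of Mfap4 was set against those of all other genes by the root mean square difference of log2 values centred on each gene's mean over the 6 arrays. The 5 nearest genes were Slit1, which encodes an axon guidance ligand (0.71), the ephrin receptor gene Epha3 (0.74), the potassium channel gene Kcnk9 (0.74), the chemokine gene Ccl27a (0.76), which has near-identical copies and is uncertain for that reason, and the growth factor gene Fgf5 (0.79). Their log2 differences were 1.34, 2.90, 1.42, 1.50 and 1.44, and in each every knockout value lay above every wild type value, as in 10.2% of all genes. The 5 were picked for nearness to a profile with a wide group difference, so both traits follow largely from the choice. Nothing is read from them. In wild type replicate 1 these 5 genes lay below their own means, while Mfap4 lay above its own. Epha3, for one, had levels of 10.24, 10.80 and 10.47 in knockout tumours and 7.58, 8.14 and 7.08 in wild type tumours. Of the other members Mfap2, the closest to Mfap4, lay at a distance of 1.27 (rank 3483 of 22179) and Mfap5, the farthest, at 1.44 (rank 18766), beside a median of 1.36 over all genes.

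**Figure D3:**
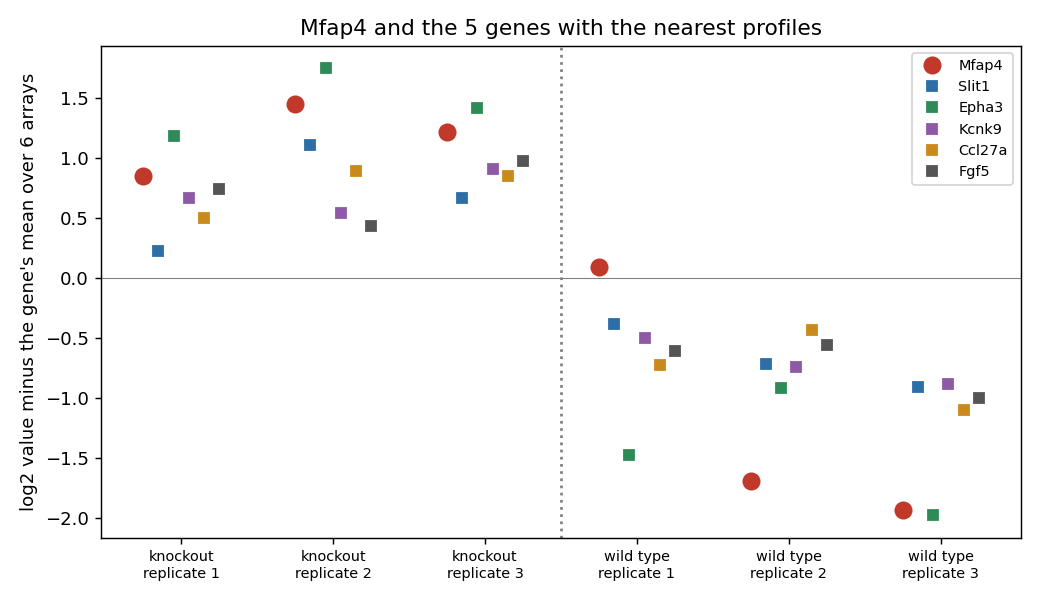
Log2 values of Mfap4 (circles) and of the 5 genes with the nearest profiles (squares), each centred on its mean over 6 arrays, for 3 knockout tumours (left of the dotted line) and 3 wild type tumours (right). All 6 genes are higher in knockout tumours, which follows largely from picking the 5 for nearness to Mfap4. In wild type replicate 1 Mfap4 alone lies above its own mean.

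The genes next to Mfap4 on chromosome 11 were taken by RefSeq gene order, a choice made after the Mfap4 values were seen. Among the 4 measured genes on either side, the nearest on one side, Rnf112, a brain ring finger gene, had log2 levels of 7.97, 6.90 and 8.17 in knockout tumours and 6.83, 6.99 and 6.93 in wild type tumours. Knockout replicates 1 and 3 were high and knockout replicate 2 lay within the wild type range (log2 difference 0.76, SE 0.30, limma adjusted p = 0.321). The other 7 neighbours, which include the kinase gene Mapk7 and the cilium gene B9d1, had differences between -0.07 and 0.17. Their groups overlapped in 7 of 7, while groups did not overlap in 19.6% of all genes. Of these 7, Gm12271 had a mean over all arrays of 4.30, no higher than the levels of absent genes.

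Other genes that build, modify or break down elastic fibres were taken from 8 lists by role, 54 genes in all, of which 49 were measured. In limma 0 of 49 rose and 0 fell at an adjusted p of 0.05 over all genes, beside 0.207% of all genes, and 12 (24.5%) had an unadjusted p under 0.05, beside 13.8% of all genes. The log2 differences ran from -0.89 to 0.71 with a median of 0.02, 27 positive and 22 negative. Groups did not overlap in 28.6% of the 49, beside 19.6% of all genes. The values of individual genes follow by role.

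Crosslinking enzymes oxidise lysines of elastin and collagen. The widest difference of 4 measured was that of Loxl1, which maintains elastic fibres in adult mice, with levels of 9.77, 8.73 and 8.44 in knockout tumours and 7.99, 8.81 and 8.89 in wild type tumours. Knockout replicate 1 was high and wild type replicate 1 low, while the other 4 tumours lay between them (log2 difference 0.42, SE 0.36, limma adjusted p = 0.665). Lox, Loxl3 and Loxl4 had log2 differences of -0.17, 0.13 and -0.02.

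Among other fibulins and hemicentins, Hmcn1, which encodes a large fibulin-related protein of basement membranes, had levels of 6.66, 6.40 and 6.58 in knockout tumours and 5.97, 5.92 and 6.12 in wild type tumours. The groups were apart by more than their spread, but the gene did not pass over all genes (log2 difference 0.54, SE 0.11, limma adjusted p = 0.12). Its mean over all arrays, 6.28, was close to the levels of absent genes. Fbln7 had a difference of -0.20 (SE 0.11, adjusted p = 0.462 in limma) and Efemp1, which encodes fibulin-3, one of -0.33. The 5 emilins and multimerins, glycoproteins of the elastin and microfibril interface and of vessels, lay between -0.01 and 0.21, with Mmrn1 at 0.21 and Emilin3 at 0.08. Mmrn1 was dim, with a mean over all arrays of 5.88 beside 5.74, the highest value of absent genes.

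Of the latent TGF-beta genes, Tgfb3, which encodes a ligand, had levels of 7.74, 7.53 and 7.48 in knockout tumours and 6.88, 7.04 and 7.04 in wild type tumours. These did not overlap, with a log2 difference of 0.60 (SE 0.10, limma adjusted p = 0.0948). Ltbp4, which with fibulins directs elastin assembly, had levels of 8.13, 8.03 and 7.82 in knockout tumours and 8.33, 8.84 and 8.24 in wild type tumours, with every knockout value lower (log2 difference -0.48, SE 0.17, limma adjusted p = 0.288). Tgfb2 had a log2 difference of -0.56 (SE 0.26, adjusted p = 0.405 in limma) and Tgfb1, Ltbp2 and Ltbp3 lay at -0.06, 0.06 and -0.08.

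ADAMTS proteases and ADAMTS-like proteins bind fibrillin and modify microfibrils. Of 8 measured, Adamts17 had a log2 difference of 0.41 (SE 0.10, limma adjusted p = 0.155) and Adamts6 one of 0.38 (SE 0.14, adjusted p = 0.291 in limma), and in both the groups did not overlap. Among 8 proteoglycans and other microfibril-associated genes, 7 had positive differences, beside 50.9% of all genes. In limma 0 of the 8 passed over all genes, and 2 (25%) had an unadjusted p under 0.05, beside 13.8% of all genes. The collagen-binding proteoglycan gene Lum had levels of 7.50, 7.68 and 7.51 in knockout tumours and 6.92, 6.60 and 7.48 in wild type tumours, where wild type replicate 3 nearly reached the knockout range (log2 difference 0.56, SE 0.21, limma adjusted p = 0.301). Fmod, of the same family, had a difference of 0.38 (SE 0.16, adjusted p = 0.348 in limma), while Vcan, the proteoglycan gene that differed in the negative direction, lay at -0.24 (SE 0.22, adjusted p = 0.685 in limma). The 12 markers of fibroblasts and meninges, among them Lum and Dcn, had summed levels of 7041 to 7248 in knockout tumours and 6869 to 8216 in wild type tumours, with 12 of 12 above the levels of absent genes. Pdgfra was the brightest of the 12 and gives much of this sum. Its log2 levels were 11.43, 11.79 and 11.84 in knockout tumours and 12.15, 12.07 and 12.19 in wild type tumours. Of the 12, 8 had positive and 4 negative log2 differences.

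Of 8 integrin genes, whose products bind fibrillins, fibulins or MFAP4, Itgav, the alpha-v chain, had levels of 11.11, 11.29 and 11.19 in knockout tumours and 11.55, 11.84 and 11.36 in wild type tumours. All knockout values were lower, with a log2 difference of -0.39 (SE 0.13, limma adjusted p = 0.28). Itgb1 had a difference of 0.11 (SE 0.08, adjusted p = 0.635 in limma), and its groups did not overlap either. Itgb6 had a mean over all arrays of 5.38, no higher than the levels of absent genes.

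Among 7 proteases that cleave elastin or fibrillin, Mmp2, a gelatinase gene, had levels of 8.58, 8.45 and 8.59 in knockout tumours and 9.45, 9.71 and 9.13 in wild type tumours. The groups lay far apart relative to their spread, and the gene did not pass (log2 difference -0.89, SE 0.15, limma adjusted p = 0.0816), although its adjusted p was 0.0335 without wild type replicate 3, 0.0419 with a mean-variance trend and 0.0472 with array weights, in a range up to 0.245 over all alternatives. Mmp9, the other gelatinase gene, and Ctss, a cathepsin gene of macrophages, had log2 differences of -0.58 (SE 0.11, limma adjusted p = 0.119) and -0.57 (SE 0.11, limma adjusted p = 0.121). Mmp14, which encodes a membrane protease that activates the MMP2 protein, lay the other way at 0.71 (SE 0.18, adjusted p = 0.184 in limma). The summed level of 10 microglia and macrophage markers was 3361 to 3818 in knockout tumours and 3925 to 4648 in wild type tumours, without overlap, and all 10 lay above the levels of absent genes. Of these 10 markers, 9 had negative log2 differences and 1 a positive one, beside 50.9% positive over all genes. Groups did not overlap in 3 (30%), beside 19.6% of all genes. The part of these cells in the protease values was not tested.

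**Figure D4:**
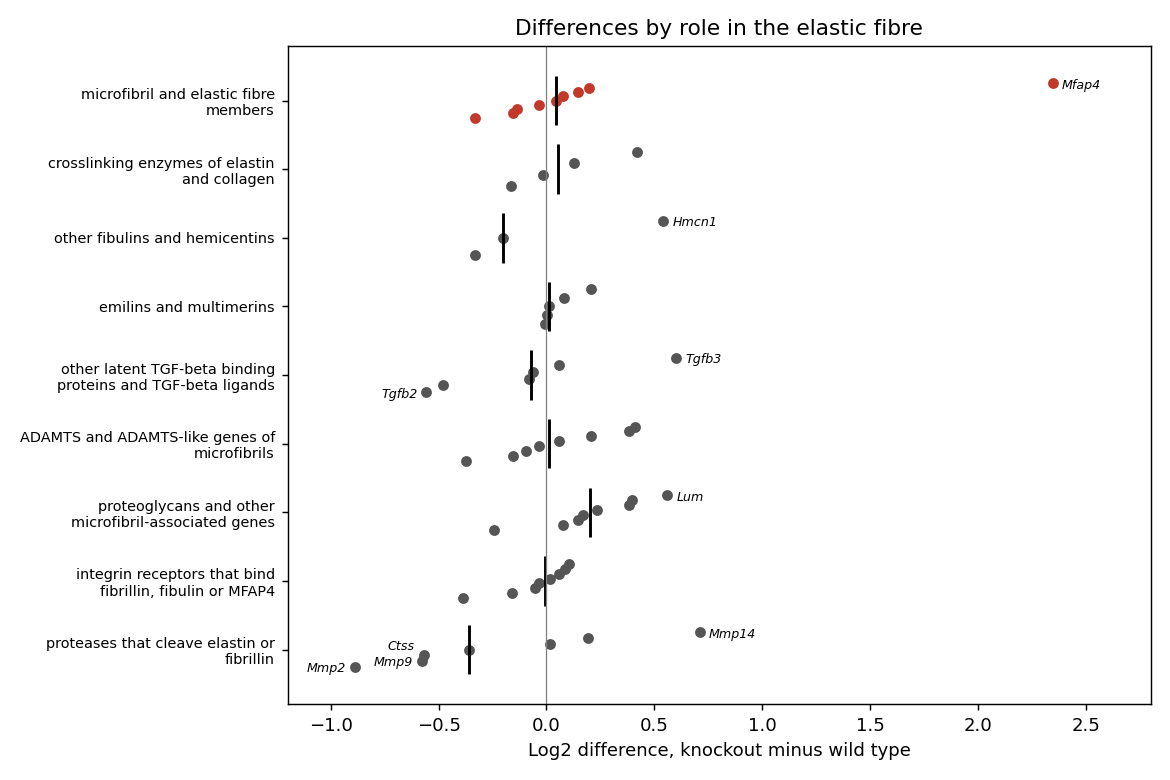
Log2 differences, knockout minus wild type, of the 9 measured members (red) and of 49 other elastic fibre genes by role (grey), with the median of each list as a vertical line; genes beyond 0.5 in either direction are named. Mfap4 at 2.35 stands far from all others, which lie between -0.89 and 0.71.

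**Figure D5:**
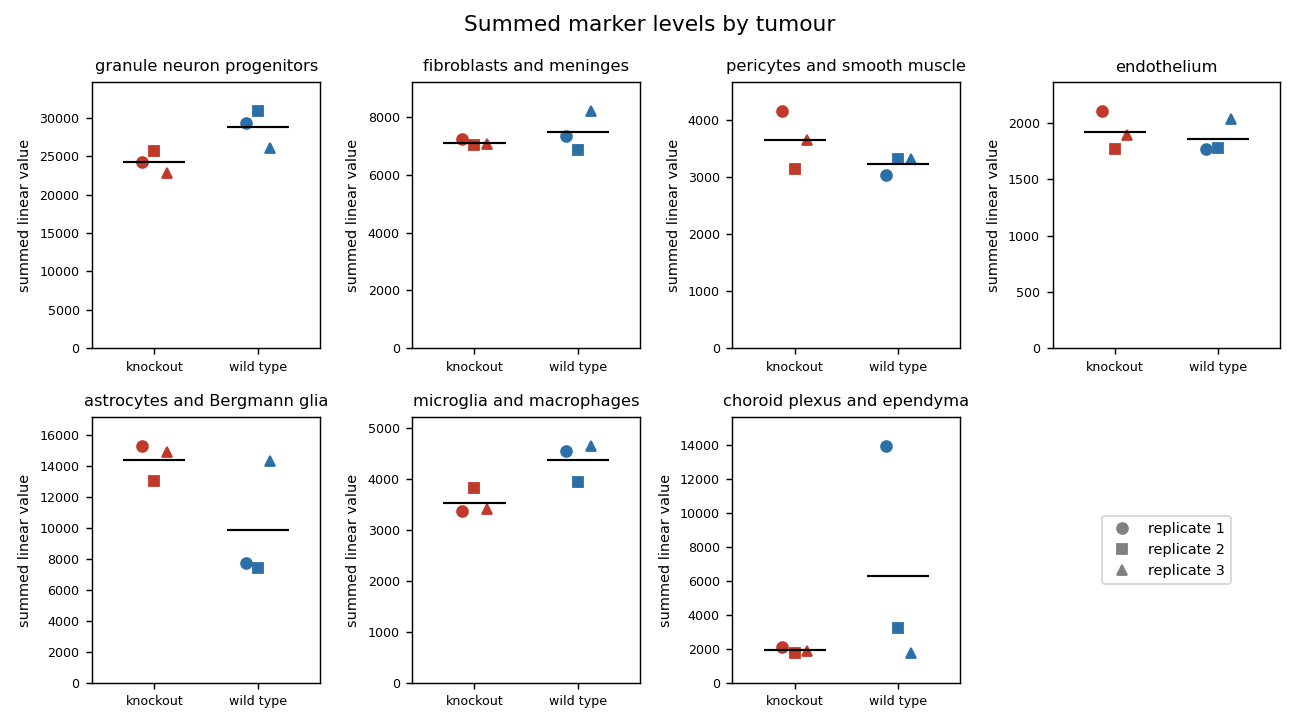
Summed linear RMA values of the marker lists in each of 3 knockout (left) and 3 wild type (right) tumours, with the group mean as a line; each panel has its own axis from 0. The choroid plexus sum reaches 13980 in wild type replicate 1, of which Ttr gives 11710. The astrocyte sum is low in wild type replicates 1 and 2 (7747 and 7419). Single markers of both lists differ from their sum.

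The plot of marker sums shows the cell types that the gene groups above were set beside. Endothelial markers had summed levels of 1773 to 2109 in knockout tumours and 1769 to 2034 in wild type tumours, with 9 of 10 above the levels of absent genes and Ly6c1 at those levels. The summed levels of the fibroblast, pericyte and endothelial lists overlapped between the groups, while single markers differed in both directions. Much of the fibroblast sum came from Pdgfra, which was lower in every knockout tumour (log2 difference -0.45), while 8 of the 12 had positive differences. The overlap of that sum therefore does not show that the other markers were alike. Among 12 fibroblast and meningeal markers every knockout value lay above the wild type values in 2 and below them in 2, with log2 differences from -0.45 (Foxc1) to 1.39 (Igf2). Among 12 pericyte and smooth muscle markers this held for 1 and 2, and among 10 endothelial markers for 1 and 0. Over all genes the shares were 10.2% above and 9.43% below. The numbers with an unadjusted p under 0.05 in limma were 4, 5 and 2 (33.3%, 41.7% and 20%), beside 13.8% of all genes. In these 3 lists 0 passed the threshold in limma over all genes, beside 0.207% of all genes. The part of these cells in the microfibril values was not tested.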

How the data were processed

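RNA from 6 tumours, 3 per genotype by their titles, was hybridised to 1 array each. The authors deposited log2 values; the submitters' processing notes name RMA and oligo, with neither versions nor a genome build. RMA removes shifts shared by most genes and compresses differences of dim features. Precision is limited by the number of arrays.

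Of 41345 features 23521 had exactly 1 symbol in the platform annotation, 1814 several and 16010 none. The feature with the highest mean over 6 arrays stood for each of 22180 genes, with no filter on level; each measured member had 1 feature. The fit used limma 3.58.1 (R 4.3.3) on unchanged values, by lmFit and then eBayes with no trend and no covariate; two-sided p-values were adjusted by Benjamini-Hochberg over every gene, and the threshold was 0.05. Differences are knockout minus wild type. On simulated data with 22180 genes and 200 changed, the fit recovered 17.6%, 82.4% and 99.2% of genes changed by 0.5, 1 and 2 on the log2 scale. The simulated noise was normal, independent between genes and equally wide in both groups. Mfap4 spread more widely among wild type than among knockout tumours, so these shares need not hold for genes like it.

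The members and lists were chosen with earlier results of these data known. Named were all members, from each role list genes past the threshold or else the 2 with the smallest p among genes brighter than absent sex-linked genes, and the 5 profiles nearest to Mfap4; other genes were named after their values were seen. RefSeq was used for gene order and promoter windows; protein sequences were not used here. Alternatives covered array scaling, dim genes, variance models, array weights, several features per gene, a replicate block, X and Y genes, the threshold and leaving out each array.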

Additional observations from a re-analysis of the deposited data

How the results depend on the processing

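Over all genes 46 passed the threshold, 107 with a mean-variance trend, 131 at an adjusted p of 0.1, 12 with a replicate block, and 4 to 128 with 1 array left out (4 without knockout replicate 3, 128 without knockout replicate 2). The labels do not say whether replicate numbers pair the tumours. Deviations of same-numbered tumours correlated at -0.03, 0.05 and 0.10, and 3 of 6 arrays matched their own number best. With so few arrays these values cannot settle whether tumours were paired. The count of elastic fibre assembly genes past the threshold was 0, and 1 with a mean-variance trend and with array weights (Mmp2, adjusted p = 0.0419 and 0.0472), 2 at an adjusted p of 0.1 (Mmp2 and Tgfb3), and 0 to 1 with 1 array left out (Mmp2 without wild type replicate 3). The count of members past the threshold was 0 to 1 with 1 array left out (Mfap4 without wild type replicate 1) and 0 in the other alternatives, where the adjusted p of Mfap4 with all arrays ranged from 0.0816 to 0.174. With 1 array left out, 4 to 6 members were higher in knockout tumours, against 5 with all arrays. In the 9 alternatives that can alter a member's difference (array scaling, array weights and arrays left out), 76 of 81 values kept their sign. The 5 that changed sign were Fbln1 (-0.0033 when quantile normalised again, -0.05 without knockout replicate 1), Fbn2 (0.01 with array weights, 0.11 without knockout replicate 3) and Ltbp1 (0.03 without wild type replicate 3); the cause was not tested. No member had a second feature to compare. Dim features limit Mfap5 among the members, and Itgb6, Mmrn1, Mmp12, Lox and Hmcn1 among the assembly genes. The mean of Itgb6, 5.38, lay below 5.74, the highest value of absent genes, and the others lay near the levels of absent genes.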
